A study of Mus musculus with 8 samples.

Results

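The growth hormone, STAT5 and IGF1 pathway of hepatocytes was examined through 10 genes: Ghr, Prlr, Jak2, Stat5a, Stat5b, Cish, Socs2, Bcl6, Igf1 and Igfals. Its members were all array probes annotated to these symbols whose detection p-value, the deposited comparison of a probe with the negative control beads, was at most 0.05 in 1 or more arrays. This gave 13 probes of 8 genes, out of 19618 detected probes among the 45281 on the array. All 13 were detected in all 8 arrays, and no annotated probe of these genes fell outside the limit. Symbols were available only for the 16820 probes that the authors kept after removing probes not detected in any sample. That no annotated probe failed was therefore largely set beforehand. The dimmest member values were those of Stat5a probe ILMN_2976188, down to a deposited intensity of 326 in AAV-Cre replicate 4, and of Cish, 365 in the same array, where the median of all probes was 280. Stat5b and Prlr had no annotated probe in the table used here and were not analysed.

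The study asked which transcripts depend on GATA4, a zinc finger transcription factor, in adult hepatocytes. All mice were Gata4 fl/fl (both alleles floxed, CD1 x 129S1/SvImJ, 2 to 3 months old) and received an AAV8 vector by the tail vein 2 weeks before RNA was taken. AAV8-Tbg-Cre (AAV-Cre, 4 samples) carried the Cre recombinase and AAV8-Tbg-GFP (AAV-GFP, 4 samples) was the control. In both, the thyroxine-binding globulin (Tbg) promoter limits expression to hepatocytes, so the other liver cells keep the floxed alleles intact. Hepatocytes were purified by collagenase digestion and a Percoll gradient, and total RNA was hybridised to 1 bead array per sample. Whether every sample is a separate mouse is not stated in the labels. The p-values therefore rest on the spread among these samples, and how much of that spread is technical is not known.

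Growth hormone binds its receptor, GHR, on the hepatocyte and activates the receptor-bound kinase JAK2, which phosphorylates the transcription factors STAT5A and STAT5B. In the liver STAT5 switches on Igf1 and Igfals, which supply the circulating growth factor IGF1 and the subunit that stabilises it in blood, and Cish and Socs2, whose products brake the receptor in a feedback loop. BCL6 is a transcriptional repressor that STAT5 silences and that can bind many of the same DNA sites. The timing of growth hormone pulses differs between male and female rodents and sets many sex-biased liver genes.

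Promoter stretches of 3 members are shown because they hold the sequence that STAT5 binds (Cish, Bcl6) or the sequence that GATA factors bind (Igf1). They were read from RefSeq promoter windows of 300 bases (250 before and 50 after a transcription start, GRCm38.p6), each 5′ to 3′ on the strand of the gene. The capitals mark matches to the STAT5 motif TTCNNNGAA in Cish and Bcl6 and to the GATA motif in Igf1. The Cish stretch is chr9:107296559-107296683 on the plus strand, from base -100 to base 25 of the start. The Bcl6 stretch is chr16:23981344-23981463 on the minus strand, from base -180 to base -61 of a start that lies inside the gene. The Igf1 stretch is chr10:87861051-87861110 on the plus strand, from base -60 to base -1.
Cish: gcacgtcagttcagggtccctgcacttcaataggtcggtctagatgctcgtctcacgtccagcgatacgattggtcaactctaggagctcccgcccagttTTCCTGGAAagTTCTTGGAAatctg
Bcl6: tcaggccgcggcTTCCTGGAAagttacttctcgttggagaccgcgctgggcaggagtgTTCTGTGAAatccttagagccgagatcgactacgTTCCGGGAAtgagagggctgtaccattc
Igf1: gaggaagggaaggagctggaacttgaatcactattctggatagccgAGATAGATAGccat

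Of the 10 genes, 9 had promoter windows, 17 in all, and Socs2 was not matched. The STAT5 motif, which reads the same on both strands, was present in 6 of the 17 windows, those of Cish, Bcl6, Igfals and Prlr, against 8.3% of all 32851 windows. Cish had 2 matches, TTCCTGGAA at bases 1 to 9 and TTCTTGGAA at bases 12 to 20 of its transcript, and 0.457% of all windows held 2 or more. Bcl6 had 3 in the window shown, and 0.0335% of windows held 3 or more. The GATA motif was searched as the letters GATA with A or T before and A or G after them, on both strands. Matches were present in 2 member windows, of Igf1 (2 overlapping matches) and Prlr, and in 29.8% of all windows. A match is a description of these letters and not a binding site, and windows of 1 gene can share bases. A window without a match says nothing about binding elsewhere. The Cish window held no GATA match, while the paper reports a GATA4 site near Cish by ChIP-seq of whole liver. It also reports GATA4 occupancy at Cish by ChIP-qPCR.

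The number of probes detected ran from 14788 in AAV-Cre replicate 3 to 16387 in AAV-GFP replicate 4, and AAV-Cre replicate 4 had the second fewest (15067). The one probe for Gata4 was close to background throughout, at log2 signals of 5.02 to 5.37 in AAV-GFP and 5.72 to 6.28 in AAV-Cre. It was detected in 1 array, so it checks neither the excision nor the labels. Xist, which coats the silenced X chromosome, stood at log2 signals of 13.33 and 13.78 in AAV-GFP replicates 1 and 4 against 5.07 to 5.33 elsewhere, and the Y-linked Uty was detected in the other 6 arrays only. Neither the labels nor the methods name the sex of these animals. By Xist and Uty, AAV-GFP replicates 1 and 4 read as female and the other 6 arrays as male. Kdm5d, also Y-linked, was detected in 4 arrays and was less clear. It stood at 5.47 and 5.42 in the 2 Xist-positive arrays, at 5.96 and 5.37 in AAV-Cre replicates 3 and 4, and at 7.75 to 8.34 elsewhere. Why Kdm5d was low in those 2 AAV-Cre arrays, where Uty was detected, was not tested. By Xist and Uty all AAV-Cre arrays are on the male side. On that reading a difference between the vectors is partly mixed with a difference between the sexes. Values with AAV-GFP replicates 1 and 4 left out, or AAV-Cre replicates 3 and 4, are given below where they differ most from those with all arrays.

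Of the hepatocyte list 7 of 12 markers were measured, among them Alb and Hnf4a, and their summed log2 signal was 16.73 to 16.77 in AAV-GFP and 16.63 to 16.99 in AAV-Cre. Markers of other cells were also present. The 9 measured Kupffer cell markers summed to 10.18 to 10.97 in AAV-GFP and 10.88 to 11.44 in AAV-Cre, with 8 of 9 higher on average in AAV-Cre and a median difference of 0.49. The 9 measured sinusoidal endothelial markers summed to 12.25 to 13.37 and 12.83 to 13.37, all 9 higher on average in AAV-Cre (median 0.52). Of the 7 cholangiocyte markers Sox9 was measured (9.08 to 10.25 in AAV-GFP and 10.40 to 11.28 in AAV-Cre), while 5 stellate cell markers summed to 11.85 to 12.98 and 12.56 to 12.77. None of the 8 lymphocyte markers was measured. The part of these markers in the results below was not tested, and in bulk RNA fewer cells of a type cannot be told apart from less RNA per cell.

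No member passed the test. The comparison was made by limma across all 19618 detected probes with Benjamini-Hochberg adjustment at 0.25, where 0 of 13 member probes were called against 0.00510% of all probes. That share is 1 probe, ILMN_2476405, which has no single gene symbol and was singled out after its values were seen (log2 difference -8.80 ± 0.41 SE, adjusted p = 1.07e-04). All differences are AAV-Cre minus AAV-GFP in log2 normalized signal, and positive values are higher in AAV-Cre. At an unadjusted p under 0.05 there was 1 member probe higher in AAV-Cre (Bcl6), against 5.20% of all probes. There were 2 lower (Cish and Socs2), against 4.26%. The groups did not overlap for 0 of 13 probes, while 3.12% of all probes had every AAV-Cre array above every AAV-GFP array and 1.74% had every one below. The probes were chosen by their detection p-values, and the 10 genes were listed with earlier results of this comparison known, so the counts describe them and support nothing further. Without AAV-GFP replicate 2 the whole array gave 10 calls and without AAV-Cre replicate 1 it gave 4, with 0 members in both.

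**Figure D1:**
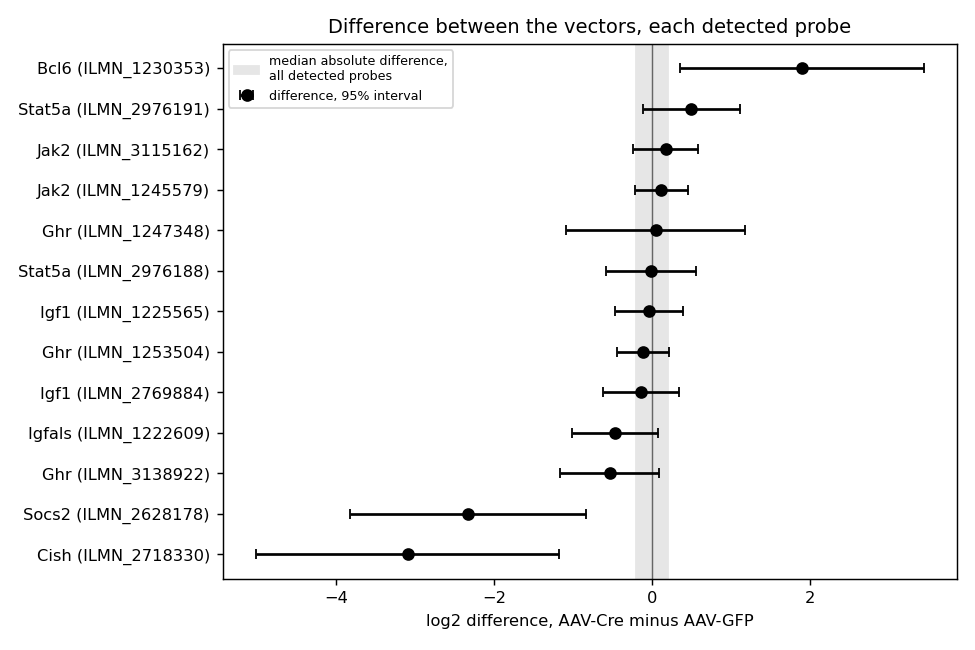
Log2 difference of each of the 13 member probes, AAV-Cre minus AAV-GFP (horizontal axis), with the 95% interval of limma as the bar, n = 4 arrays per group. Cish (-3.10), Socs2 (-2.34) and Bcl6 (1.90) have intervals that leave out 0, and the other 10 probes lie within 0.54 of 0 on either side; the grey band is the median absolute difference of all detected probes, 0.20.

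The receptor was measured by 3 probes annotated to 3 different transcript records. Ghr probe ILMN_1253504 gave log2 signals, in the order of replicates 1 to 4 as for all genes below, of 15.09, 15.38, 15.32 and 15.12 in AAV-GFP and of 15.32, 15.19, 14.97 and 14.98 in AAV-Cre. The groups overlapped, with a difference of -0.11 ± 0.14 (SE, n = 4 per group; limma adjusted p = 0.781). Leaving out AAV-GFP replicates 1 and 4 gave -0.24, and leaving out AAV-Cre replicates 3 and 4 gave 0.030. The probe had the smallest spread within groups of any member probe, an SD of 0.16. Ghr probe ILMN_3138922 gave 13.19, 12.77, 12.94 and 12.58 in AAV-GFP and 12.74, 12.88, 11.94 and 11.77 in AAV-Cre. Only AAV-Cre replicates 3 and 4, the arrays with the fewest probes detected, lay below all AAV-GFP arrays. The difference of -0.54 ± 0.28 (adjusted p = 0.523) was -0.064 without them. The third probe, ILMN_1247348, ranged from 8.85 to 10.44 in AAV-GFP and from 8.98 to 11.17 in AAV-Cre, with a difference of 0.042 ± 0.50, or 0.38 without AAV-GFP replicates 1 and 4. Over the 8 arrays it had r values of 0.026 and 0.0075 with the other two, while those had an r of 0.65 with each other.

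Jak2, the kinase bound to the receptor, was measured by 2 probes. ILMN_1245579 ranged from 9.98 to 10.35 in AAV-GFP and from 10.01 to 10.43 in AAV-Cre, and ILMN_3115162 from 8.62 to 9.43 and from 9.04 to 9.25. Their differences were 0.11 ± 0.15 (95% interval -0.22 to 0.45) and 0.17 ± 0.18 (-0.24 to 0.58), and the AAV-Cre range of the second lay wholly inside the AAV-GFP range. With AAV-GFP replicates 1 and 4 left out they were 0.20 and 0.19, and with AAV-Cre replicates 3 and 4 left out they were -0.016 and 0.14. Stat5a, which lies next to Stat5b on chromosome 11 and encodes a closely similar factor, also had 2 probes. Whether they also bind Stat5b RNA was not tested. Stat5a probe ILMN_2976191 gave 9.09, 8.57, 8.39 and 7.97 in AAV-GFP and 8.57, 9.27, 9.37 and 8.79 in AAV-Cre. AAV-Cre replicates 2 and 3 lay above all AAV-GFP arrays, and the difference was 0.49 ± 0.27 (adjusted p = 0.534). The other probe, ILMN_2976188, ranged from 6.79 to 7.54 in AAV-GFP and from 6.50 to 7.47 in AAV-Cre (difference -0.015 ± 0.25). The 2 Stat5a probes had an r of 0.42 over the arrays and opposite signs.

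**Figure D2:**
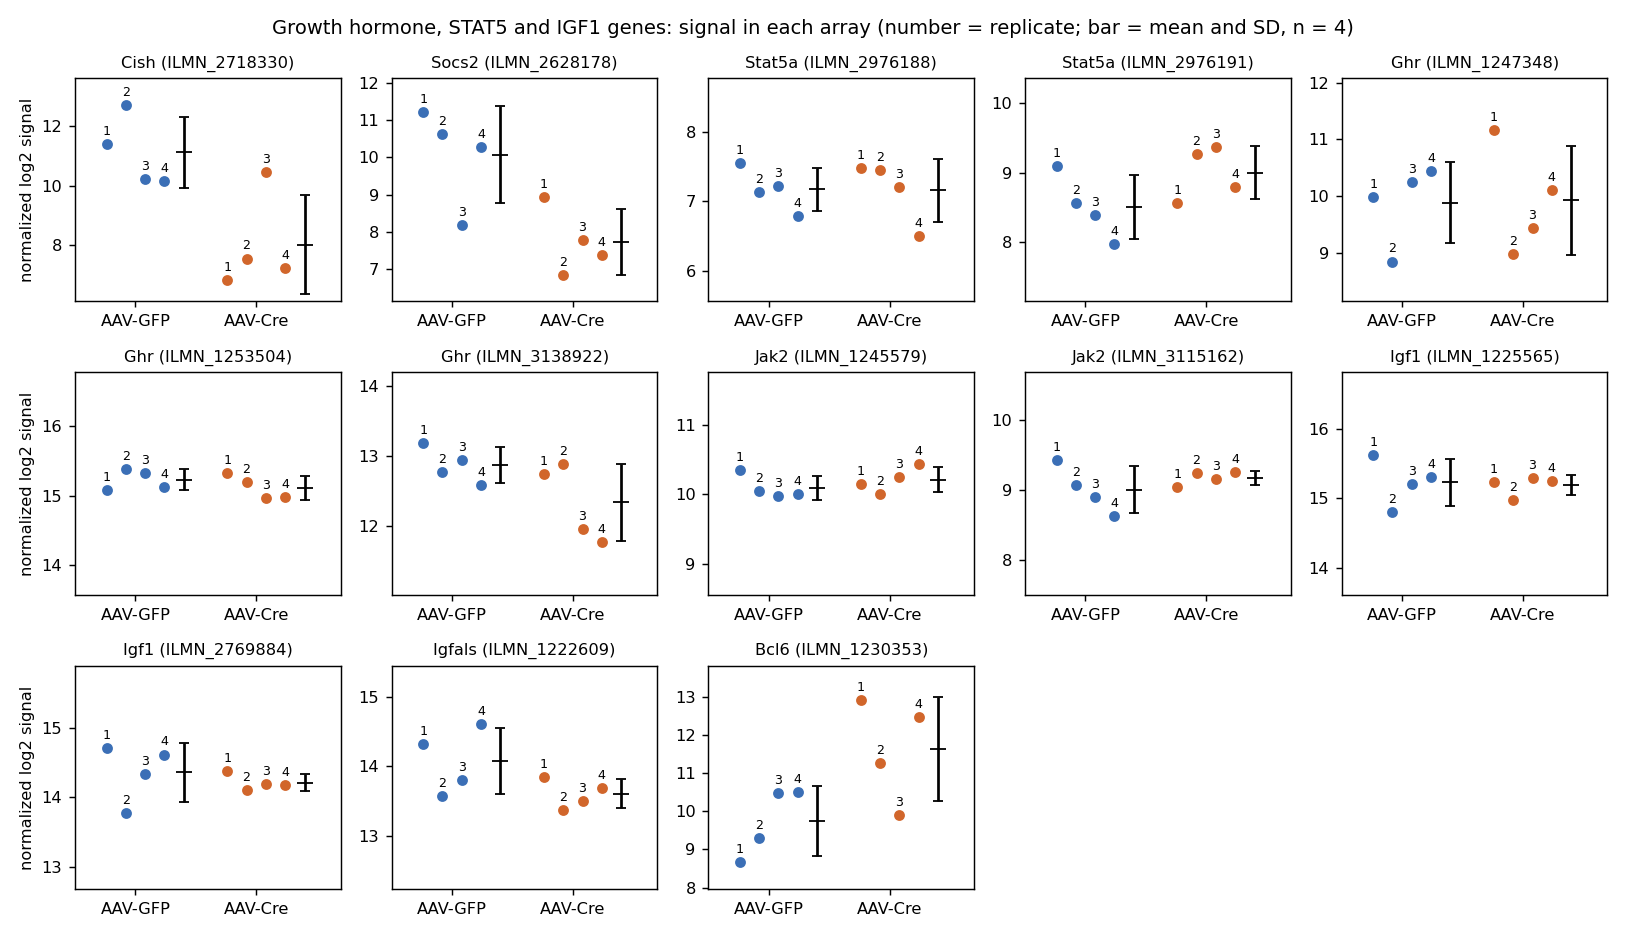
Normalized log2 signal (vertical axis, a separate range per panel) of the 13 member probes in each array, AAV-GFP in blue and AAV-Cre in orange, numbered by replicate, with the group mean and SD (n = 4) as the black bar. In Cish, Socs2 and Bcl6 3 of 4 AAV-Cre arrays lie outside the AAV-GFP range, and AAV-Cre replicate 3 has the highest Cish (10.46) and the lowest Bcl6 (9.89) of its group.

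Cish, which encodes a cytokine-inducible SH2 protein that dampens STAT5 signalling, had the largest difference of the members. Its log2 signal was 11.38, 12.70, 10.22 and 10.16 in AAV-GFP and 6.82, 7.56, 10.46 and 7.23 in AAV-Cre. AAV-Cre replicates 1, 2 and 4 lay below every AAV-GFP array, but AAV-Cre replicate 3 lay above AAV-GFP replicates 3 and 4. As deposited, before normalization, the intensity ran from 365 in AAV-Cre replicate 4 to 6929 in AAV-GFP replicate 2. The means were 11.11 ± 1.20 in AAV-GFP and 8.02 ± 1.66 in AAV-Cre (SD, n = 4), a difference of -3.10 ± 0.85 (SE) or 8.55-fold on the linear scale. The fold rests on the background step: it was 4.26-fold (-2.09 on the log2 scale) without background correction and 4.32-fold on the authors' value table. The limma adjusted p was 0.518 (unadjusted 0.00538, 95% interval -5.01 to -1.18). With 1 array left out the unadjusted limma p was 0.000182 to 0.0174. It was also under 0.05 in 13 of 13 other settings, which changed the processing or model or left out 2 arrays. The difference was -3.90 without AAV-Cre replicate 3, -2.56 without AAV-GFP replicate 2, and -3.47 without AAV-GFP replicates 1 and 4. The paper, with a different test and FDR limit, lists Cish among the genes lower after Gata4 excision on the arrays. It also reports a statistically significant change of Cish by RT-qPCR.

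Socs2, the suppressor of cytokine signalling best known for limiting growth hormone action and body size in mice, followed. Its log2 signal was 11.21, 10.62, 8.20 and 10.27 in AAV-GFP and 8.94, 6.85, 7.80 and 7.37 in AAV-Cre. Here AAV-GFP replicate 3 was the low control, and AAV-Cre replicate 1 was the only AAV-Cre array above it. The difference was -2.34 ± 0.66 (SE; 5.05-fold, interval -3.83 to -0.84, limma adjusted p = 0.518, unadjusted 0.00646). Without background correction it was -1.50, or 2.83-fold. It was -2.96 without AAV-GFP replicate 3, and with 1 array left out its unadjusted limma p was 0.000256 to 0.0203. Without AAV-GFP replicates 1 and 4 it was -1.68, and its unadjusted limma p was 0.0719. With AAV-Cre replicates 3 and 4 left out instead it was -2.17, and that p was 0.0507. The arrays that set Cish and Socs2 apart from their groups were thus not the same ones.

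Bcl6, the repressor, had the reverse order. Its log2 signal was 8.66, 9.30, 10.49 and 10.51 in AAV-GFP and 12.91, 11.27, 9.89 and 12.47 in AAV-Cre. AAV-Cre replicates 1, 2 and 4 lay above all AAV-GFP arrays, and AAV-Cre replicate 3 lay below AAV-GFP replicates 3 and 4. The deposited intensity ran from 817 in AAV-GFP replicate 1 to 7693 in AAV-Cre replicate 1. The difference of 1.90 ± 0.68 (SE; 3.72-fold, interval 0.35 to 3.44) had a limma adjusted p of 0.518 and an unadjusted p of 0.0214. With 1 array left out the unadjusted limma p ran from 0.00215 (without AAV-Cre replicate 3) to 0.0629. It was under 0.05 in 4 of these 8 cases and in 12 of the 13 other settings. Without AAV-GFP replicates 1 and 4 the difference was 1.76, with an unadjusted limma p of 0.0781. Bcl6 is also expressed in macrophages and lymphocytes. The summed Kupffer cell signal given above was highest in AAV-Cre replicates 1 and 2 (11.40 and 11.44), where Bcl6 was 12.91 and 11.27, and it was 10.91 and 10.88 in AAV-Cre replicates 3 and 4, where Bcl6 was 9.89 and 12.47.

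These 3 genes also had unusually large spreads within their groups. The within-group SD was 1.45 for Cish, 1.12 for Socs2 and 1.16 for Bcl6, at percentiles 99.5, 98.8 and 99 of all detected probes, whose median was 0.31. The other member probes had within-group SDs of 0.16 to 0.84.

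Across the 8 arrays Bcl6 ran opposite to Cish. Pearson's r was -0.93 and Spearman's rho was -0.98. Both groups enter these values, so the difference between the groups is part of them. After each group mean was removed the r was -0.87, without AAV-Cre replicates 1 and 4, the arrays farthest from the median of Cish, it was -0.85, and without AAV-GFP replicates 1 and 4 it was -0.94. Cish and Socs2 had an r of 0.68 (rho = 0.57), which was 0.21 after the group means were removed. These correlations describe 8 arrays that were normalized together, were computed for genes picked with their values known, and were 2 of 28 pairs of members.

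**Figure D3:**
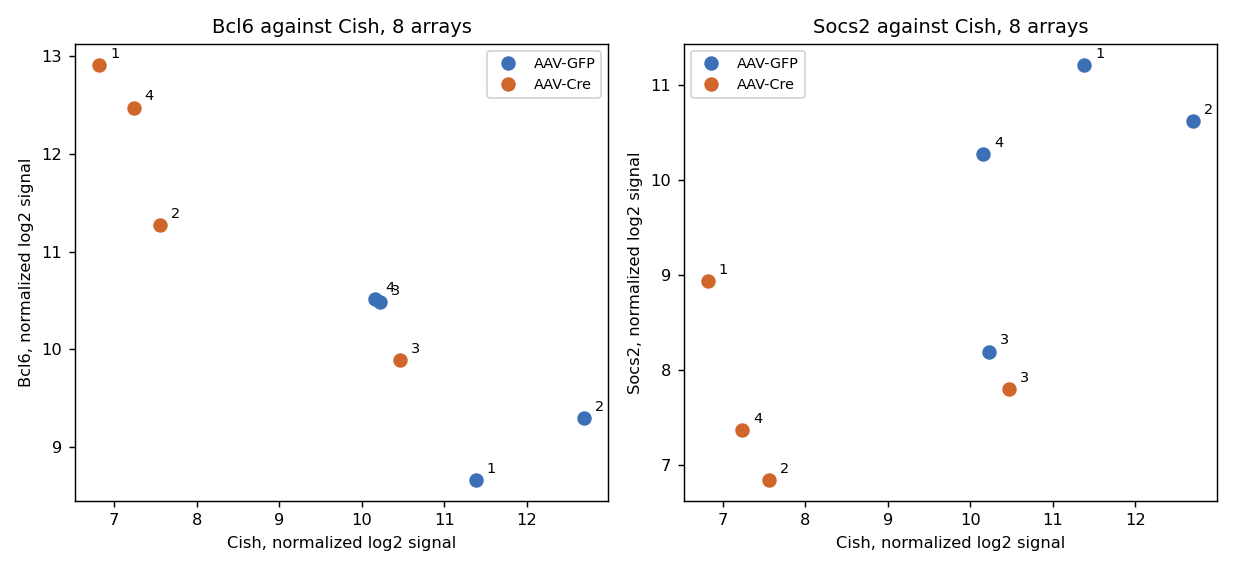
Normalized log2 signal of Bcl6 (left) and Socs2 (right) against that of Cish, 1 point per array, AAV-GFP in blue and AAV-Cre in orange, numbered by replicate. Bcl6 is lower where Cish is higher in both groups (r = -0.93 over 8 arrays), with AAV-Cre replicate 3 among the AAV-GFP arrays; Socs2 against Cish is more scattered (r = 0.68).

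The genes of the secreted products had smaller differences than Cish, Socs2 and Bcl6, and their groups overlapped, as did those of every member probe. Igf1 encodes the growth factor itself, and its deposited intensities on probe ILMN_1225565 ran from 29401 to 58423. Igf1 probe ILMN_1225565 gave log2 signals of 15.62, 14.80, 15.20 and 15.31 in AAV-GFP and 15.24, 14.98, 15.30 and 15.25 in AAV-Cre. All AAV-Cre arrays lay inside the AAV-GFP range, and the difference was -0.043 ± 0.19 (SE, adjusted p = 0.945) with an interval of -0.47 to 0.38. The second probe, ILMN_2769884, gave -0.15 ± 0.21 (interval -0.63 to 0.33), and the 2 probes had an r of 0.89 over the arrays. Both signs turned without AAV-GFP replicates 1 and 4 (0.19 and 0.16). Igfals, which encodes the acid-labile subunit of the circulating IGF1 complex, gave 14.33, 13.57, 13.80 and 14.61 in AAV-GFP and 13.85, 13.38, 13.50 and 13.69 in AAV-Cre. AAV-GFP replicates 1 and 4 were the high arrays. The difference of -0.47 ± 0.24 (interval -1.01 to 0.072, adjusted p = 0.523) was -0.080 without them.

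**Figure D4:**
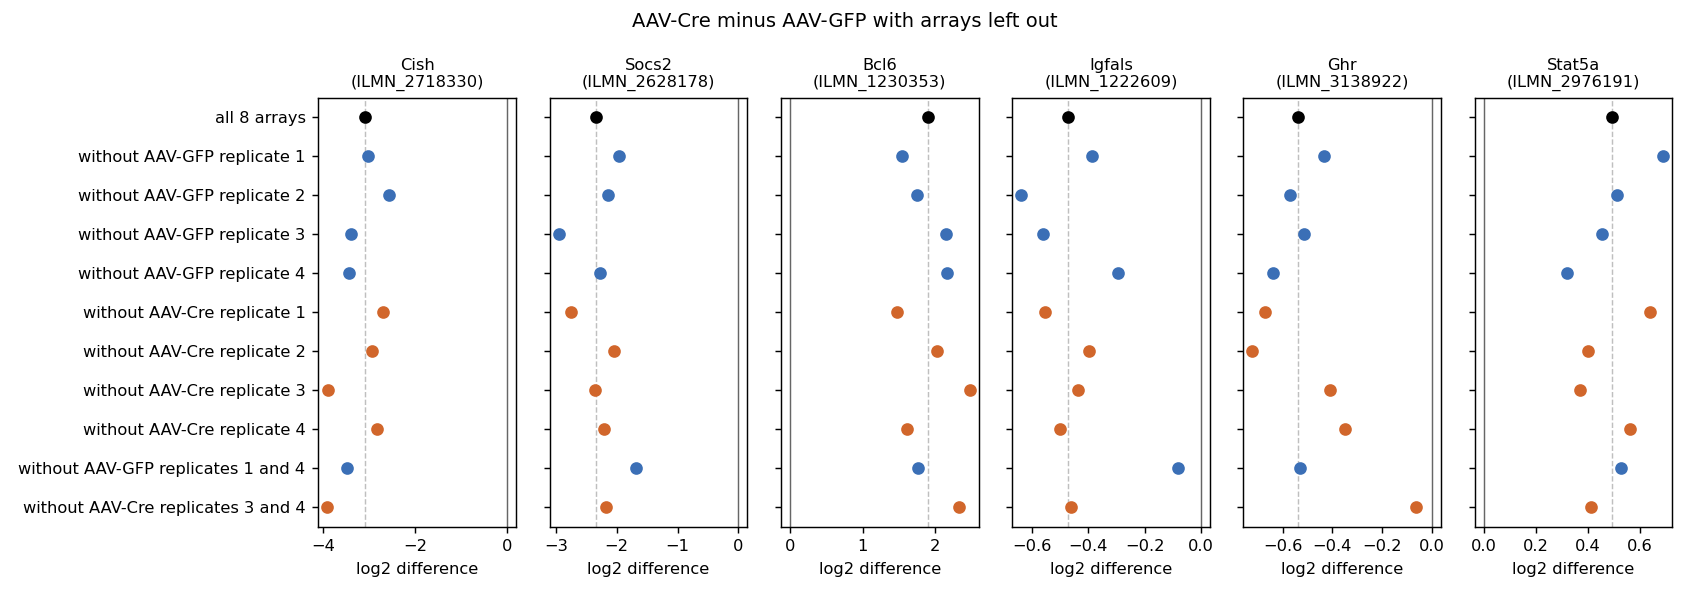
Log2 difference, AAV-Cre minus AAV-GFP (horizontal axis, a separate range per panel), of 6 member probes with all 8 arrays (black) and with the named arrays left out (blue for AAV-GFP, orange for AAV-Cre). Cish stays between -3.91 and -2.56, while Igfals is -0.080 without AAV-GFP replicates 1 and 4 and Ghr probe ILMN_3138922 is -0.064 without AAV-Cre replicates 3 and 4.

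The genes with the pattern most like Cish over the 8 arrays were Map3k20, a stress-activated kinase (r = 0.98), Trhde, a peptidase (r = 0.95), and Foxa2, a liver transcription factor (r = 0.93). Their own differences were -0.54, -0.33 and -0.77. Most like Socs2 were Ddit4l (r = 0.95), Zfp472 (r = 0.94) and Tm2d2 (r = 0.93). Most like Bcl6 were Ifi207 (r = 0.96), Cyba, a subunit of the phagocyte NADPH oxidase (r = 0.96), and Oma1, a mitochondrial protease (r = 0.95), with differences of 0.67, 0.44 and 0.16. With 8 points shared by all genes and 8382 genes searched, the highest values are large by selection and are given as a description.

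The rest of the pathway was read from lists with 1 probe per gene, where 5.13% of 9640 named genes were higher and 4.56% lower in AAV-Cre at an unadjusted limma p under 0.05, and the median difference was 0.054. No listed gene passed the adjusted test. Of the other JAK and STAT proteins and hepatocyte cytokine receptors 12 of 20 were measured, with 0 higher, 1 lower and a median of -0.030 (0.018 with AAV-GFP replicates 1 and 4 left out, and 0.022 with AAV-Cre replicates 3 and 4 left out instead). The one was Jak1, the kinase of the interferon and interleukin receptors, at 6.86 to 7.51 in AAV-GFP and 6.60, 7.10, 5.81 and 5.36 in AAV-Cre (difference -0.93 ± 0.37, limma adjusted p = 0.518). Jak1 was detected in 4 AAV-GFP arrays and in 2 AAV-Cre arrays. The low arrays, AAV-Cre replicates 3 and 4, were not above background, so the size of the difference is uncertain. It was -0.28 without background correction and -0.30 without those 2 arrays. Stat3, the factor of the interleukin 6 response, differed by -0.52 with all arrays and by 0.066 without these 2, Stat2 by -0.21 and Tyk2 by -0.15.

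Of the other brakes on JAK and STAT signalling 13 of 16 were measured, with 2 higher, 0 lower and a median of 0.11. The sign of that median turned to -0.11 without AAV-GFP replicates 1 and 4 (1 higher) and to -0.087 without AAV-Cre replicates 3 and 4 (0 higher). The phosphatase genes Ptpn2 (0.46 ± 0.19) and Ptpn11 (0.35 ± 0.15) were the 2, each with a limma adjusted p of 0.518. Without AAV-Cre replicates 3 and 4 their unadjusted limma p-values were 0.194 and 0.223, and Ptpn2 was 0.15 without background correction. Ptpn1, a phosphatase that acts on JAK2, differed by -0.87 and Socs6 by -0.56, both low in AAV-Cre replicates 3 and 4, and by -0.023 and -0.038 without those arrays. Ptpn1 was not above background in those 2 arrays, and without background correction the differences were -0.26 and -0.29. Socs3, the feedback inhibitor best known from interleukin 6, differed by -0.27 ± 0.40. Of the IGF system 9 of 18 genes were measured, with 0 higher, 0 lower and a median of -0.061, or 0.030 with AAV-GFP replicates 1 and 4 left out and 0.0072 with AAV-Cre replicates 3 and 4 left out. The binding protein gene Igfbp1 differed by -0.57 ± 0.29 but was detected in 3 of 8 arrays, and the difference was -0.16 without background correction and -0.17 without AAV-GFP replicates 1 and 4. The receptor gene Igf2r differed by 0.22, Igfbp5 by 0.23 and the insulin receptor substrate gene Irs2 by -0.19. The range over the whole IGF list was -0.57 to 0.23.

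**Figure D5:**
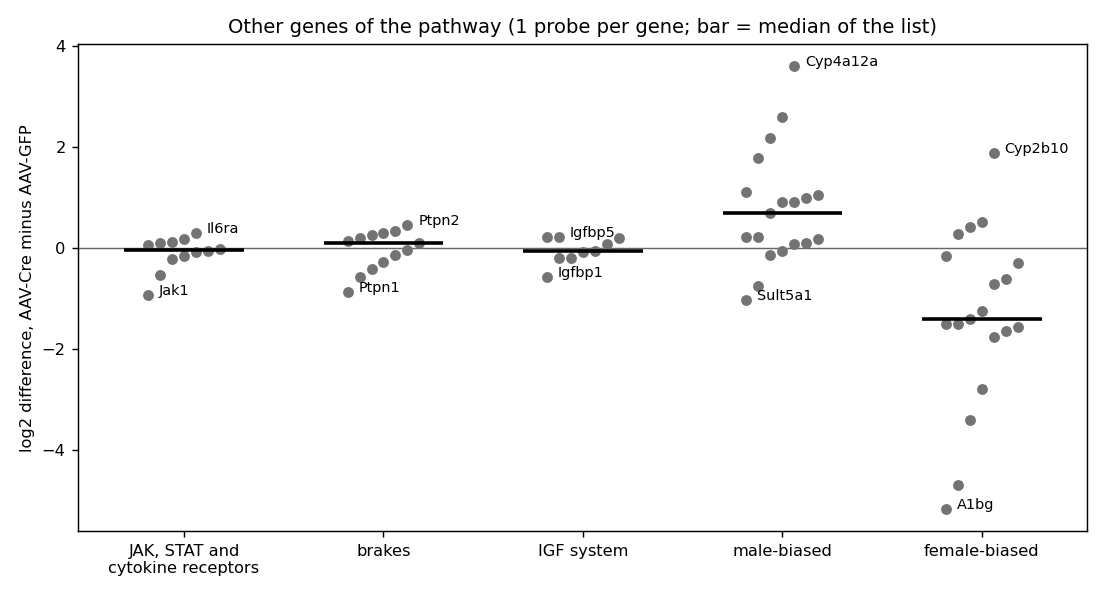
Log2 difference, AAV-Cre minus AAV-GFP (vertical axis), of the other pathway genes and of sex-biased liver genes, 1 point per measured gene in 5 lists (horizontal axis), with the list median as the bar and the extreme genes named. The first 3 lists lie between -0.93 and 0.46 with medians near 0, the male-biased list has a median of 0.71 and the female-biased list one of -1.41.

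The liver genes that growth hormone timing makes sex-biased had larger median differences. Of the male-biased list 19 of 24 were measured, with 3 higher, 1 lower and a median of 0.71. The female-biased list had 19 of 29 measured, with 1 higher, 4 lower and a median of -1.41. These lists moved with the 2 Xist-positive arrays. The summed log2 signal of the male-biased genes was 17.45 and 17.51 in AAV-GFP replicates 1 and 4 and 18.81 to 18.93 in the other 6 arrays, and that of the female-biased genes was 15.87 and 17.33 in those 2 and 13.89 to 15.02 in the others. Of the 19 male-biased probes 5, among them Mup21 and Cyp4a12a, lay within 0.5 of the top of the scale (16.11) in all of the other 6 arrays, so the male-biased sum is bounded there and its narrow range is no measure of how alike those arrays are. Without AAV-GFP replicates 1 and 4 the medians were -0.031 for the male-biased list (19 genes) and -0.069 for the female-biased list (14 genes still detected). Elovl3, a fatty acid elongase, shows it in the single arrays, at 6.94, 10.30, 10.42 and 6.14 in AAV-GFP and 10.54 to 11.77 in AAV-Cre. The difference in Elovl3 was 2.60, and 0.69 when the 2 arrays were left out, or 1.65 with all arrays and no background correction. Mup20, a urinary protein gene, differed by 1.01 and 0.53 in the same way, and Cyp7b1, an oxysterol hydroxylase, by 0.71 and 0.39.

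With all 8 arrays the groups did not overlap for 4 of the 19 male-biased genes, higher in AAV-Cre, and 2 of the 19 female-biased genes, lower. Of the 9640 named genes with 1 probe each, 315 were higher and 188 lower without overlap. Of all detected probes 3.12% were higher and 1.74% lower without overlap. The 2 female-biased genes were Cyp39a1 and Acot4, an acyl-CoA thioesterase gene. The log2 signal of Acot4 was 7.32, 6.96, 7.14 and 7.60 in AAV-GFP and 6.19, 6.05, 5.30 and 5.51 in AAV-Cre. The difference was -1.49 ± 0.24 (SE, limma adjusted p = 0.514) and -1.22 without AAV-GFP replicates 1 and 4. Acot4 was detected in 4 AAV-GFP arrays and in 1 AAV-Cre array, so its difference is taken against values mostly not above background. It was -0.44 without background correction and on the authors' table. Cyp39a1, an oxysterol hydroxylase gene, differed by -1.24 with all arrays (-0.62 without background correction) and by -0.78 without the 2 arrays, Cyp17a1 by -1.55 and -0.91, and Sult5a1, on the male-biased list, by -1.02 and -0.65. Fmo2, detected in 2 AAV-GFP arrays, differed by 0.53 and 0.57, and by 0.14 without background correction. With all arrays and without these 2, Cish differed by -3.10 and -3.47, Socs2 by -2.34 and -1.68, and Bcl6 by 1.90 and 1.76. Within AAV-GFP the Xist-positive arrays held the second highest and the lowest Cish value. The part of sex in these differences was not tested.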

How the data were processed

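The authors labelled total RNA (integrity number above 7.5) with the TargetAmp-Nano kit for Illumina MouseWG-6 v2 arrays. From GenomeStudio (no version is stated) the authors exported, and deposited without normalization, a linear intensity and a detection p-value for each probe. A second deposited table holds the intensity of 16820 probes after the authors' quantile normalization, and its values lay within 0.0389 on the log2 scale of a quantile normalization of the first table. Its column medians were 708.1 to 709.1, so it is linear and uncentred. Gene symbols come from the platform annotation, which covers these probes only, 14408 of them with 1 symbol, and can be old.

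The background was inferred from detection p-values and removed by normexp, after which an offset of 16, quantile normalization and log2 were applied (limma 3.58.1, R 4.3.3). A probe was kept if its detection p-value was at most 0.05 in 1 or more arrays. The groups were compared by lmFit and eBayes over 19618 probes, without covariates, at a Benjamini-Hochberg adjusted p of 0.25. The limma script and a SAM statistic written for this work were tested on simulated data. Lists used the probe of highest mean per gene. List genes were named by smallest p, up to 4 per list; likeness took the 3 highest r per member. Jak2 and the other members are given by every detected probe. Socs3 was named outside this rule, after its value was seen. The members and lists were chosen with earlier results of these data known. Alternatives changed how background, offset and normalization were set, which table, probes and arrays were used, the variance model and array weights, the block by replicate number, and the test. List medians without 2 arrays were added after seeing the data. Precision is limited by the number of arrays. Figures were drawn with matplotlib 3.10.9.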

Additional observations from a re-analysis of the deposited data

Results flagged for a closer look

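Jak2 probe ILMN_1245579 in AAV-GFP replicate 1 lay far from the rest of its group. Its log2 signal was 10.35, against 10.04 for the nearest of the other 3 arrays, and this gap was 0.836 of the whole range of the group, above the critical value of Dixon for 4 samples at 95%. Of 26 groups of member probe values examined in this way 1 was singled out, and chance does so in about 1 of 20.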

How the results depend on the processing

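No member probe was called by limma under any alternative run, and the lowest adjusted p of a member was 0.284 (Cish and Socs2, without AAV-Cre replicate 1). A SAM statistic at the same FDR called 9 of all probes and 0 members on the same values, and 196 probes, of which 153 were higher in AAV-Cre, and 1 member (Cish) on the authors' value table. The count of all probes called, 1 in limma, was 2 without background correction, with offset 50, with 75th percentile scaling, with trend and robust variances and with array weights, 3 on the authors' table, and 1 to 10 with 1 array left out (10 without AAV-GFP replicate 2, 4 when AAV-Cre replicate 1 was left out and 2 when AAV-GFP replicate 3 was). Member probes at an unadjusted p under 0.05, 3 in all, were 2 to 4 with 1 array left out and 1 (Cish) without AAV-GFP replicates 1 and 4. The replicate numbers follow the order of the sample titles within each group, and the labels name no shared animal or batch. Deviations of same-numbered arrays had r of 0.191, 0.0679, 0.0165 and 0.132, and 2 of 4 AAV-Cre arrays correlated best with their own number. So few arrays cannot decide whether same-numbered samples share anything beyond the number. With the replicate block 5 member probes had an unadjusted p under 0.05, Igfals and Ghr probe ILMN_3138922 being added, and 0 were called.

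Across changes of processing Cish ran from -3.15 to -2.09, Socs2 from -2.44 to -1.50 and Bcl6 from 1.61 to 1.90, and with 1 array left out from -3.90 to -2.56, from -2.96 to -1.96 and from 1.47 to 2.47. Signs turned in probes near 0. Stat5a probe ILMN_2976188 was 0.00013 without background correction, 0.0011 on the authors' table, -0.14 to 0.21 with 1 array left out and 0.30 without AAV-Cre replicates 3 and 4. Ghr probe ILMN_1247348 was -0.023 under cyclic loess and -0.37 to 0.36 with 1 array left out. Igf1 probe ILMN_1225565 was 0.018 with array weights, -0.19 to 0.087 with 1 array left out and 0.19 without AAV-GFP replicates 1 and 4, where Igf1 probe ILMN_2769884 was 0.16 and Tyk2 0.022. Without AAV-Cre replicates 3 and 4 Ghr probe ILMN_1253504 was 0.030, Jak2 probe ILMN_1245579 was -0.016 and Stat3 was 0.066. The cause was not tested in any of these. With 4 arrays per group the limma interval of Cish spans -5.01 to -1.18, and differences of the size of those of Jak2 or Igf1 were not detectable.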

Other observations

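Among the remaining members, the gene most like Stat5a probe ILMN_2976191 over the 8 arrays was Arpc5, a subunit of the actin-branching complex (r = 0.99, difference 0.20). The clotting regulator gene Proc (r = 0.95, difference -0.15) and Uox, the urate oxidase gene (r = 0.95, difference -0.56), were most like Ghr probe ILMN_1253504. Jak2 probe ILMN_1245579 was most like Lcmt1 (r = 0.98), and Igf1 probe ILMN_1225565 was most like Rhpn2 (r = 0.95). Igfals was most like Slco1a4, an organic anion transporter gene (r = 0.98, difference -0.59). These are values over 8 arrays shared by all genes, with 8382 genes searched.

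Of the 28 pairs of members, Igf1 and Igfals had an r of 0.73 after the group means were removed, and Stat5a and Bcl6 had one of -0.89, against -0.16 with the group means kept. Alas2, which encodes the erythroid enzyme of haem synthesis, had a log2 signal of 10.88 and 9.91 in AAV-GFP replicates 1 and 4 and of 13.12 to 13.52 in the other 6 arrays. The globin gene Hba-a1 did not follow it, with its highest value, 10.31, in AAV-GFP replicate 1. Without AAV-GFP replicates 1 and 4 the median difference of the sinusoidal endothelial list was 0.63 and that of the Kupffer cell list was 0.48, and without AAV-Cre replicates 3 and 4 they were 0.30 and 0.77.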
